A study of Mus musculus with 24 samples.

Results

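The expression of 10 genes of the hepatic acute phase response was followed in mouse liver: the serum amyloid A genes Saa1, Saa2, Saa3 and Saa4, the orosomucoid genes Orm1, Orm2 and Orm3, lipocalin 2 (Lcn2), haptoglobin (Hp) and lipopolysaccharide binding protein (Lbp). They were taken by gene name from the array's annotation, with every probe of each, which gave 12 probes for 10 genes among 21330 genes tested. Lcn2 and Orm3 had 2 probes each and the other 8 genes 1. All 12 probes passed the filter on dim signal. The study asked how activating the beta3 adrenergic receptor changes the liver transcriptome of mice whose hepatocytes do or do not express PPARα, the nuclear receptor that drives fatty acid oxidation genes.

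RNA from the livers of 24 male C57Bl/6J mice was measured on 1 single-colour array per mouse. The 4 groups of 6 were LWT mice given vehicle, LWT mice given CL316243, LKO mice given vehicle and LKO mice given CL316243. LWT and LKO are the labels' genotypes, read here from the series title as hepatocytes with and without PPARα. The allele and the Cre line behind LKO are not given in the sources used here. CL316243, an agonist of the beta3 receptor, was gavaged at 3 mg/kg at Zeitgeber time 10, the controls received its vehicle (0.5% carboxymethyl cellulose), and livers were collected at Zeitgeber time 16, which is 6 h later. The mice of all groups were fed ad libitum, and their ages are not given in the sources used here. The labels give each array as a separate replicate mouse.

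The acute phase response is the change in plasma proteins made by the liver after infection, injury or another inflammatory stimulus. Interleukin-6, acting through gp130 and STAT3, and interleukin-1, acting through NF-κB, reach the hepatocyte and induce these genes together with C/EBP factors. The proteins bind lipids, iron carriers, haemoglobin or bacterial products, and their plasma levels are used as markers of inflammation.

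Levels below are log2 intensities relative to the 75th percentile of the same array, so a value is comparable between groups for 1 probe and not between probes. A gene was called when its Benjamini-Hochberg adjusted p in limma, over all genes tested, was under 0.05. Signal clearly over background was recorded for 26984 to 34202 of the 56605 probes, depending on the array. The 10 hepatocyte markers of the list were all tested and well above background in every group, as the label liver implies. Arrays lay on 3 slides of 8, with 2 mice of each group on every slide. LWT mouse 4 and LKO mouse 3 given CL316243 stood apart. The changes of LWT mouse 4 over 8147 genes called with CL316243 in LWT had a slope of 0.62 on the mean of the other mice of its group. Those 5 had slopes of 0.88 to 1.17, and several results are given with and without LWT mouse 4. Over 8556 genes called in LKO, the slope of LKO mouse 3 was 1.47, against 0.71 to 1.07 for the other 5. In whole liver, fewer cells of a type and less RNA per cell cannot be told apart.

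The probes are 60 bases long and 5 of the 12 cross an exon junction. The pair below shows how closely related targets limit the naming of the orosomucoid signals: over the 52 bases that the Orm1 and Orm3 probes share, 46 match and 6 differ, and the 6 are in capitals. The Orm1 probe lies in chr4:63007395-63009038 and the Orm3 probe in chr4:63018910-63020393 (mm9, plus strand, each across a junction), and the array's annotation assigns the Orm1 probe to the Orm2 transcript as well. Orm1 and Orm3 values are therefore uncertain as to the family member. The annotation assigns the Orm2 probe to the Orm2 transcript alone, and whether it also binds transcripts of the other 2 was not tested.
Orm1 probe: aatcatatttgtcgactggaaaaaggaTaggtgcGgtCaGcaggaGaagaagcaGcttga
Orm3 probe: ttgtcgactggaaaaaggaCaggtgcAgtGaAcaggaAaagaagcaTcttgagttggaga

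The Saa probes are less alike. The Saa1 probe (chr7:53996070-53996129, mm9, minus strand) and the Saa3 probe (chr7:53967559-53967618, mm9, minus strand) match at 20 of 50 bases in their best overlap, and those of Saa1 and Saa2 at 15 of 39, each probe being contiguous in the genome. The genes themselves are close paralogs, and whether a probe also binds the transcript of a paralog was not tested. The match between 2 probes cannot show this, because they start at different positions of their transcripts (346 for Saa1 and 460 for Saa2). Saa1 and Saa2 values are therefore also uncertain as to the family member.
Saa1 probe: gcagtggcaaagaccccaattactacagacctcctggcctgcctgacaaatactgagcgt
Saa3 probe: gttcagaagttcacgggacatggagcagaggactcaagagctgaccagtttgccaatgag

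A total of 7 of the 10 genes had an entry in the RefSeq promoter table (GRCm38.p6): Saa1, Saa2, Saa3, Saa4, Orm2, Orm3 and Lcn2. The 250 bases before the start were searched on both strands for the C/EBP core TTGCNNAA, the STAT core TTCNNNGAA and the NF-κB core (GGG and CC with any 5 bases between them). The C/EBP core was present in 7 of 7 windows, against 9.56% of 32851 windows of all genes. The NF-κB core was present in 4 of 7 (Saa1, Saa2, Saa4 and Lcn2), against 45.8% of all windows, and no match overlapped a C/EBP match. The STAT core was in 0 of 7, against 7.02% of all windows, which says only that these letters are not in these windows. The windows of 4 genes are shown with the C/EBP match in capitals: Saa1 and Saa2, whose levels followed each other most closely, Saa4, whose response differed between genotypes, and Lcn2, with the largest response. They lie at chr7:46742981-46743230 (minus strand), chr7:46751583-46751832 (plus), chr7:46732604-46732853 (minus) and chr2:32387740-32387989 (minus), in this order.
Saa1 upstream: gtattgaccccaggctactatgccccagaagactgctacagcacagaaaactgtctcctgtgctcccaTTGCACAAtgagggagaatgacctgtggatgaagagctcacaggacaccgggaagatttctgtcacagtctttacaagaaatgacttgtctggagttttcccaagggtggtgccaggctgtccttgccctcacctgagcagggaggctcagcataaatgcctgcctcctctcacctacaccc
Saa2 upstream: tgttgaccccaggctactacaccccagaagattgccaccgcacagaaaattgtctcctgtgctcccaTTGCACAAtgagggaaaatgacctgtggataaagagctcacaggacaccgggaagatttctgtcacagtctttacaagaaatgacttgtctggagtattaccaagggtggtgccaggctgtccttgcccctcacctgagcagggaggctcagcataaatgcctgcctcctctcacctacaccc
Saa4 upstream: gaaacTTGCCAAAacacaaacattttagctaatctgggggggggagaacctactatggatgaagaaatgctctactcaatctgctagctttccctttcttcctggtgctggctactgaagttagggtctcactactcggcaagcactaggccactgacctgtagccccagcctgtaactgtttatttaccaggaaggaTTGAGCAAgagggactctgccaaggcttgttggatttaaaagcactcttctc
Lcn2 upstream: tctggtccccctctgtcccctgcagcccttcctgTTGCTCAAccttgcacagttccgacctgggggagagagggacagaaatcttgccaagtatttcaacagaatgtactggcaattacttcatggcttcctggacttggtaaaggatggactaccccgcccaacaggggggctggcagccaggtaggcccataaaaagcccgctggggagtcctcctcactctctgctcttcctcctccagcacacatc

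The Saa1 and Saa2 windows matched at 197 of 249 bases (79.1%) without gaps, and their C/EBP matches began 182 and 183 bases before the start. Those of Orm2 and Orm3 matched at 168 of 249 bases (67.5%), with C/EBP matches at 120 and 121 bases. Saa4 held 2 matches, at 245 and 52 bases, Saa3 one at 99 bases and Lcn2 one at 216 bases. A match of letters is a description and was not tested for binding.

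**Figure D1:**
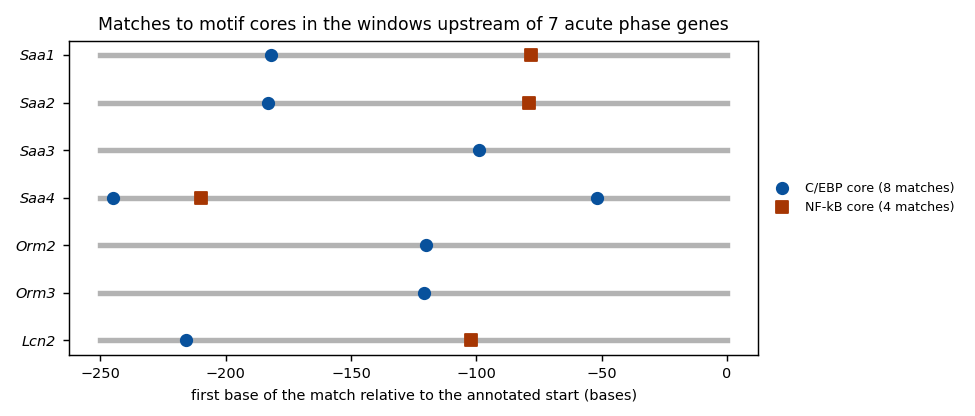
Matches to the C/EBP core (circles) and the NF-κB core (squares) in the 250 bases before the annotated start (grey lines, distance in bases on the horizontal axis) of 7 acute phase genes. The C/EBP matches of Saa1 and Saa2 begin at 182 and 183 bases and those of Orm2 and Orm3 at 120 and 121 bases.

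With CL316243, 9 of the 10 genes rose in LWT livers and none was called lower, where 38.2% of all genes tested were called, 19.1% as higher and 19.1% as lower. All 10 had an unadjusted p under 0.05 in limma, but the change of Saa4 was in the other direction (-0.47 log2). The share of all genes under this unadjusted threshold is not given here, nor for later counts at it. In LKO livers 10 of 10 rose, where 40.2% of all genes were called, 20.7% as higher and 19.4% as lower. The median log2 change of the 10 was 1.48 in LWT and 1.52 in LKO, against 0.01 and 0.03 over all genes. The groups did not overlap for 4 of 10 genes in LWT (Saa1, Saa2, Lcn2 and Hp), against 10.2% of all genes, and for 8 of 10 in LKO (all but Saa4 and Orm3), against 10.4% of all genes. Without LWT mouse 4 given CL316243, the LWT count was 8 of 10, against 12.8% of all genes. That mouse was the lowest of its group for 9 of the 10 genes, and leaving it out could only keep or raise the count.

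**Figure D2:**
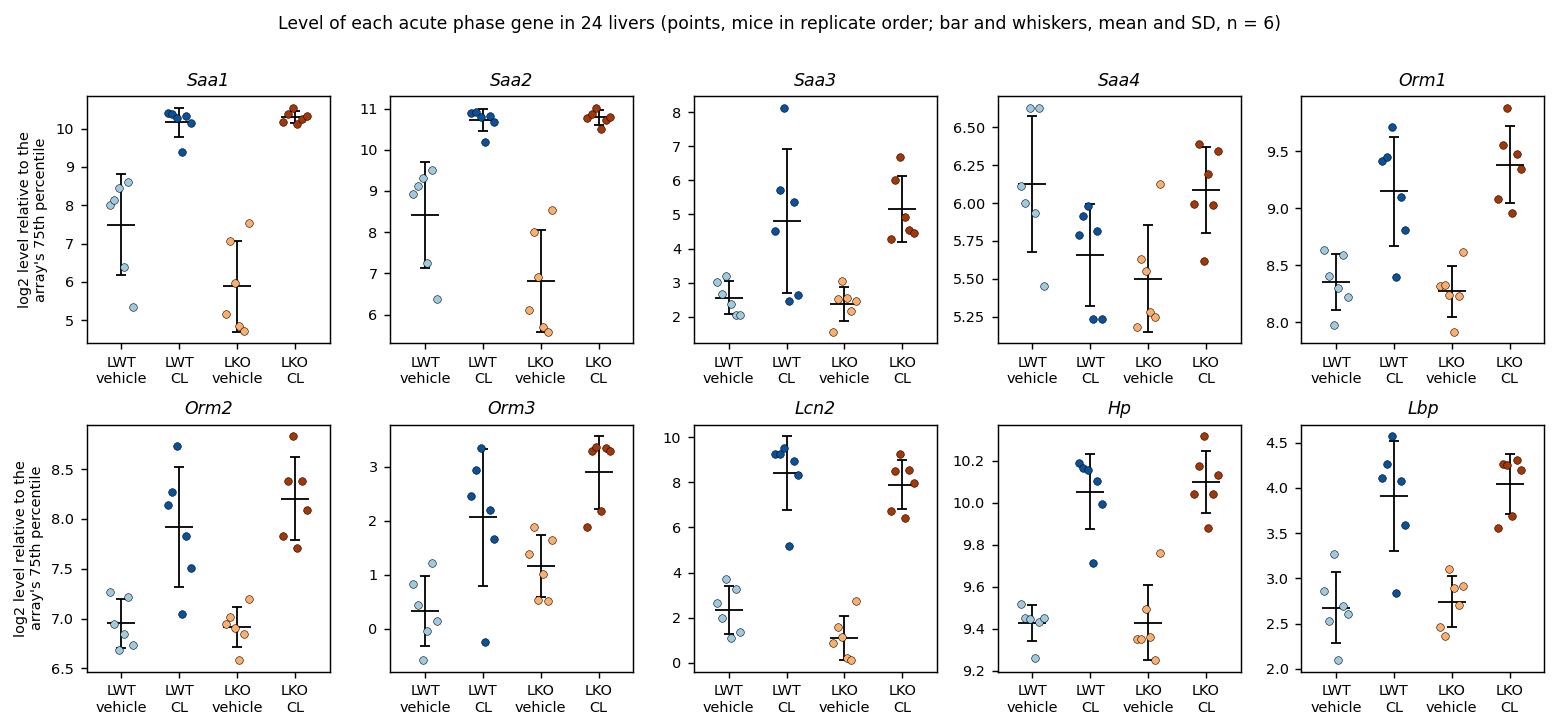
Level of each of the 10 genes in the 4 groups (points, the 6 mice of a group in replicate order; bar and whiskers, mean and SD; vertical axis, log2 level relative to the 75th percentile of the array). The mean of the CL316243 group lies above that of the vehicle group for all 10 genes in LKO and for 9 in LWT, where the exception is Saa4.

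Lcn2 encodes the siderophore-binding protein lipocalin 2, which withholds iron from bacteria. Its brighter probe gave 1.08, 2.31 and 3.70 (lowest, median, highest of 6 mice) in LWT livers with vehicle and 5.18, 9.09 and 9.52 with CL316243. In LKO livers it gave 0.11, 1.01 and 2.73 with vehicle and 6.42, 8.23 and 9.23 with CL316243. Every liver given CL316243 was higher than every liver given vehicle, and LWT mouse 4 was the lowest of those given CL316243 by a wide margin. The rise was 6.07 log2 (SE 0.67, n = 6 per group, adjusted p = 3.68e-07), or 67.2-fold (95% interval 25.7 to 175), in LWT, and 6.78 log2 (SE 0.67, adjusted p = 2e-07), or 110-fold (42.2 to 288), in LKO. Without LWT mouse 4 the LWT rise was 6.72 log2. The second Lcn2 probe, which crosses a junction, rose by 6.59 log2 in LWT and 7.16 log2 in LKO (limma adjusted p over all kept probes = 5.09e-07 and 3.62e-07). Lcn2 is also a granule protein of neutrophils, and the summed level of the neutrophil marker list was higher with CL316243 in both genotypes. Of its 10 tested genes, 3 were called higher and 2 lower in LWT (S100a8, S100a9 and Retnlg; Ly6g and Camp), and 7 were called higher and none lower in LKO. Of all genes, 19.1% were called higher and 19.1% lower in LWT and 20.7% higher in LKO. The summed level of the list on the linear scale, which Csf3r dominated (group means of 6.996 to 7.25 log2), ranged from 139 to 153 with vehicle and 154 to 178 with CL316243 in LWT (exact two-sided permutation p = 0.00216, the smallest 6 against 6 mice allow), and from 124 to 145 and 149 to 248 in LKO (exact p = 0.00216). Csf3r itself changed by 0.12 log2 in LWT, not called (limma adjusted p = 0.101), and rose by 0.26 log2 in LKO (adjusted p = 0.00121). The level of the sum thus mostly reflects 1 gene and does not describe the list as a whole. Its change did not follow Csf3r alone. The ratio of mean sums, CL316243 over vehicle, was 1.14 in LWT and 1.34 in LKO, and S100a9 rose by 1.44 and 2.24 log2. The granule genes Ltf and Ngp were well above background on 0 and at most 1 of 6 arrays in any group. The part of neutrophils in the Lcn2 rise was not tested.

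Saa1 and Saa2 encode the main serum amyloid A proteins of the acute phase, apolipoproteins that circulate on high density lipoprotein. Saa1 gave 5.36, 8.07 and 8.61 in LWT livers with vehicle and 9.39, 10.31 and 10.40 with CL316243. In LKO livers it gave 4.71, 5.57 and 7.53 with vehicle and 10.11, 10.29 and 10.54 with CL316243. All livers given the agonist were higher than any given vehicle, and the vehicle groups were widely spread, with 5 of 6 LKO livers below the LWT mean. Saa1 rose by 2.66 log2 (SE 0.50, adjusted p = 0.000219), or 6.34-fold, in LWT and by 4.41 log2 (SE 0.50, adjusted p = 8.92e-07), or 21.3-fold, in LKO.

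Saa2 gave 6.38, 9.03 and 9.51 in LWT livers with vehicle and 10.19, 10.81 and 10.92 with CL316243, and 5.59, 6.52 and 8.54 in LKO livers with vehicle and 10.50, 10.79 and 11.02 with CL316243. The order of the groups was that of Saa1. Its rise was 2.30 log2 (SE 0.50, adjusted p = 0.000876) in LWT and 3.97 log2 (SE 0.50, adjusted p = 3e-06) in LKO. The spread between mice was smaller with CL316243 in both genotypes, a difference that was not tested. The SD of Saa1 was 1.31 log2 with vehicle and 0.39 with CL316243 in LWT, and 1.19 and 0.16 in LKO, and that of Saa2 was 1.29 and 0.27, and 1.24 and 0.17. In the livers given CL316243 the raw Saa1 signal reached up to 87.5% and the Saa2 signal up to 96.2% of the brightest gene spot of the array, although 0 gene spots were flagged as saturated. Whether compression at the bright end narrowed the spread or lowered the changes was not tested.

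Saa3 is the serum amyloid A gene that is also made outside the hepatocyte, in macrophages and adipocytes. It gave 2.03, 2.53 and 3.18 in LWT livers with vehicle and 2.45, 4.94 and 8.14 with CL316243, and 1.54, 2.49 and 3.03 in LKO livers with vehicle and 4.29, 4.74 and 6.69 with CL316243. The LKO groups did not overlap. In LWT, mice 4 and 6 given CL316243 lay within the range of the vehicle group and mouse 3 far above all others, and the SD was 2.12 with CL316243 against 0.49 with vehicle. The rise was 2.25 log2 (SE 0.67, adjusted p = 0.0106) in LWT and 2.78 log2 (SE 0.67, adjusted p = 0.00214) in LKO. Without LWT mouse 3 given CL316243 the LWT rise was 1.58 log2 (adjusted p = 0.0256). By slide it was -0.06, 4.08 and 2.72 log2 in LWT, the first being the slide that holds mice 4 and 6, and 3.61, 2.34 and 2.39 log2 in LKO. Of the other sources of Saa3, 0 of 9 tested markers of Kupffer cells and macrophages were called in either genotype in limma. Of all genes, 38.2% were called in LWT and 40.2% in LKO. Of these 9 markers, 0 in LWT and 1 in LKO had an unadjusted p under 0.05. Their summed level ranged from 107 to 230 with vehicle and 111 to 214 with CL316243 in LWT and from 120 to 209 and 108 to 190 in LKO. Of 6 tested adipocyte markers, Fabp4 was called higher and Adrb3 lower in both genotypes, against 38.2% and 40.2% of all genes called. Adipoq was well above background on 0 to 3 of 6 arrays in each group. The summed level of the list ranged from 6.13 to 10.07 with vehicle and 8.52 to 48.5 with CL316243 in LWT and from 6.02 to 9.01 and 7.32 to 15.3 in LKO. Fabp4, the only one called higher, had group means of 1.47 log2 with vehicle and 4.34 with CL316243 in LWT, and 1.37 and 2.996 in LKO. The rise of the sum thus mostly follows 1 gene and does not describe the list as a whole. The part of these cells in the Saa3 change was not tested.

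Saa4 encodes the constitutive serum amyloid A, which is made by the liver without an inflammatory stimulus and is not a classical acute phase protein. It gave 5.45, 6.06 and 6.63 in LWT livers with vehicle and 5.23, 5.80 and 5.98 with CL316243. In LKO livers it gave 5.18, 5.41 and 6.13 with vehicle and 5.62, 6.09 and 6.39 with CL316243. All 6 LWT livers given the agonist lay below the LWT vehicle mean and all 6 LKO livers given it above the LKO vehicle mean, with overlapping groups in both. Its change was -0.47 log2 (SE 0.20, adjusted p = 0.0712) in LWT, which was not called. It rose by 0.59 log2 (SE 0.20, adjusted p = 0.0237) in LKO. The LWT value was called as a fall after quantile normalization (-0.55, adjusted p = 0.0361), in the authors' series table (-0.55, adjusted p = 0.0304) and without LWT vehicle mouse 6 (-0.60, adjusted p = 0.0181). The LKO rise lost its call without any 1 of 5 LKO mice (vehicle 1, 4 and 5; CL316243 2 and 6), with adjusted p up to 0.0563.

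Orosomucoids, or alpha-1 acid glycoproteins, bind lipophilic ligands and drugs in plasma. Orm1 gave 7.98, 8.35 and 8.63 in LWT livers with vehicle and 8.40, 9.25 and 9.72 with CL316243, and 7.92, 8.28 and 8.61 in LKO livers with vehicle and 8.96, 9.41 and 9.88 with CL316243. The LKO groups were separate, and in LWT mouse 4 was the one given CL316243 that lay inside the vehicle range. Its rise was 0.79 log2 (SE 0.19, adjusted p = 0.00188) in LWT and 1.11 log2 (SE 0.19, adjusted p = 7.67e-05) in LKO.

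Orm2 gave 6.69, 6.90 and 7.27 in LWT livers with vehicle and 7.04, 7.98 and 8.73 with CL316243, and 6.58, 6.93 and 7.20 in LKO livers with vehicle and 7.70, 8.24 and 8.83 with CL316243. The separation was that of Orm1. It rose by 0.97 log2 (SE 0.22, adjusted p = 0.00136) in LWT and 1.29 log2 (SE 0.22, adjusted p = 8.73e-05) in LKO.

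The brighter Orm3 probe gave -0.59, 0.28 and 1.22 in LWT livers with vehicle and -0.25, 2.33 and 3.34 with CL316243, and 0.50, 1.20 and 1.88 in LKO livers with vehicle and 1.88, 3.29 and 3.37 with CL316243. LWT mouse 4 lay inside the vehicle range, and the LKO groups met at 1.88. It rose by 1.73 log2 (SE 0.46, adjusted p = 0.00482) in LWT and 1.74 log2 (SE 0.46, adjusted p = 0.00456) in LKO. The second Orm3 probe, assigned to a predicted transcript variant, was well above background on 3, 4, 6 and 6 of 6 arrays of LWT vehicle, LWT CL316243, LKO vehicle and LKO CL316243. It changed by 0.24 log2 in LWT and 0.20 log2 in LKO, neither called (limma adjusted p over all kept probes = 0.672 and 0.701), so the probes of Orm3 disagree.

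Hp encodes haptoglobin, which captures free haemoglobin. It gave 9.26, 9.45 and 9.52 in LWT livers with vehicle and 9.71, 10.13 and 10.19 with CL316243, and 9.25, 9.36 and 9.76 in LKO livers with vehicle and 9.88, 10.09 and 10.32 with CL316243. The groups were separate in both genotypes and the mice close to each other. Its rise was 0.63 log2 (SE 0.09, adjusted p = 1.31e-05), or 1.54-fold, in LWT and 0.67 log2 (SE 0.09, adjusted p = 7.63e-06), or 1.59-fold, in LKO. The raw Hp signal reached up to 80.6% of the brightest gene spot.

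Lbp encodes the protein that delivers bacterial lipopolysaccharide to CD14. It gave 2.09, 2.65 and 3.27 in LWT livers with vehicle and 2.84, 4.10 and 4.57 with CL316243, and 2.37, 2.80 and 3.11 in LKO livers with vehicle and 3.56, 4.23 and 4.31 with CL316243. LWT mouse 4 again fell inside the vehicle range, and the LKO groups were separate. Lbp rose by 1.24 log2 (SE 0.23, adjusted p = 0.000248), or 2.35-fold, in LWT and by 1.30 log2 (SE 0.23, adjusted p = 0.000149), or 2.47-fold, in LKO. By slide, the LWT change was 0.28, 1.72 and 1.71 log2.

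**Figure D3:**
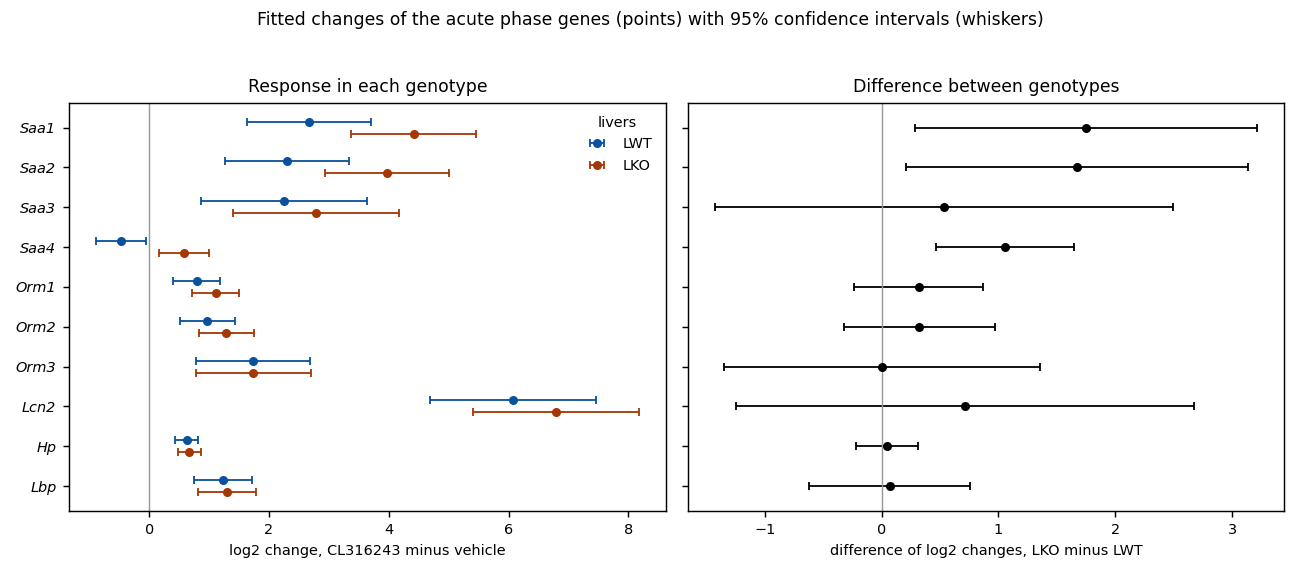
Fitted log2 change with CL316243 in LWT and LKO livers (left) and its difference, LKO minus LWT (right), for the 10 genes, with 95% confidence intervals. Lcn2 has the largest changes, 6.07 and 6.78, Saa4 lies on opposite sides of 0, and the intervals of the difference for Saa1, Saa2 and Saa4 do not include 0 before adjustment over all genes.

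Whether the response depended on hepatocyte PPARα was tested as the genotype by treatment interaction, which called 1 of 10 genes, against 5.4% of all genes tested. Saa4 was that gene. Its change with CL316243 was 1.05 log2 higher in LKO than in LWT (SE 0.28, adjusted p = 0.03), and the difference was 0.97, 0.88 and 1.31 on the 3 slides. The call was lost with no filter on dim probes (adjusted p = 0.0671) and without any 1 of 8 mice, with adjusted p up to 0.0563. These were LWT vehicle mice 3 and 5, LWT mice 4 and 6 given CL316243, LKO vehicle mice 1, 4 and 5, and LKO mouse 2 given CL316243. Saa1 and Saa2 had larger differences, 1.75 (SE 0.71, 95% interval 0.28 to 3.22, adjusted p = 0.175) and 1.67 log2 (SE 0.71, 95% interval 0.21 to 3.13, adjusted p = 0.197), which were not called. Their levels in LKO minus LWT were -1.61 and -1.60 log2 with vehicle and 0.14 and 0.07 log2 with CL316243, none of them called. Without LWT vehicle mouse 6, the lowest of its group, the difference in response for Saa1 was 2.18 log2 (adjusted p = 0.0393). The other differences ranged from 0.00 for Orm3 (95% interval -1.35 to 1.36) to 0.71 log2 for Lcn2 (95% interval -1.25 to 2.67). Without LWT mouse 4 given CL316243, the difference was 0.07 log2 for Lcn2 and -0.46 for Orm3, and that of Saa3 was 0.06 in place of 0.53. The interval was narrowest for Hp, from -0.22 to 0.31 log2.

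Without the agonist, 0 of 10 genes were called between LKO and LWT livers in limma, against 1.18% of all genes, and 3 of 10 had an unadjusted p under 0.05. These were Saa1, with -1.61 log2 in LKO against LWT (SE 0.50, adjusted p = 0.18), Saa2, with -1.60 log2 (SE 0.50, adjusted p = 0.182), and Saa4, with -0.63 log2 (SE 0.20, adjusted p = 0.205). For Saa1 the difference was -0.15, -1.95 and -2.72 log2 on the 3 slides. Without LWT vehicle mouse 6 the values were -2.04 log2 for Saa1 (adjusted p = 0.02) and -2.01 log2 for Saa2 (adjusted p = 0.0258), both called, and without LKO vehicle mouse 6 that of Saa2 was -1.95 log2 (adjusted p = 0.0477), called as well.

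With the agonist, 0 of 10 genes were called between the genotypes in limma, against 15.9% of all genes, and 1 of 10, Saa4, had an unadjusted p under 0.05 (0.43 log2, SE 0.20, adjusted p = 0.168). The difference was 0.14 log2 for Saa1 (95% interval -0.90 to 1.18) and 0.07 log2 for Saa2 (95% interval -0.96 to 1.103). For Lcn2 it was -0.52 log2 (95% interval -1.90 to 0.87), and -1.16 without LWT mouse 4, not called either way. The second Orm3 probe was 1.14 log2 higher in LKO (SE 0.39, limma adjusted p over all kept probes = 0.047), and 1.17 log2 higher with vehicle (SE 0.39, adjusted p = 0.217).

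Within the groups, mice that were high for 1 gene tended to be high for the others. Deviations from the group mean over the 24 arrays had a Pearson r above 0 in 45 of 45 pairs of genes, from 0.23 for Saa2 with Saa3 to 0.996 for Saa1 with Saa2, with a median of 0.60. Without LWT mouse 4 given CL316243 the median was 0.50 and the range 0.18 to 0.998. That mouse was the lowest of its group for 9 of 10 genes. LWT mouse 3 given CL316243 was the highest for 7, LKO mouse 3 given CL316243 for 8 and LKO vehicle mouse 6 for 7. The arrays share their scaling and labelling between genes, and the r values are a description. Mice given CL316243 also differed in their slopes over all genes called, from 0.62 to 1.47. The r over pairs of other genes is not given here, so positive values are not shown to be particular to the 10.

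**Figure D4:**
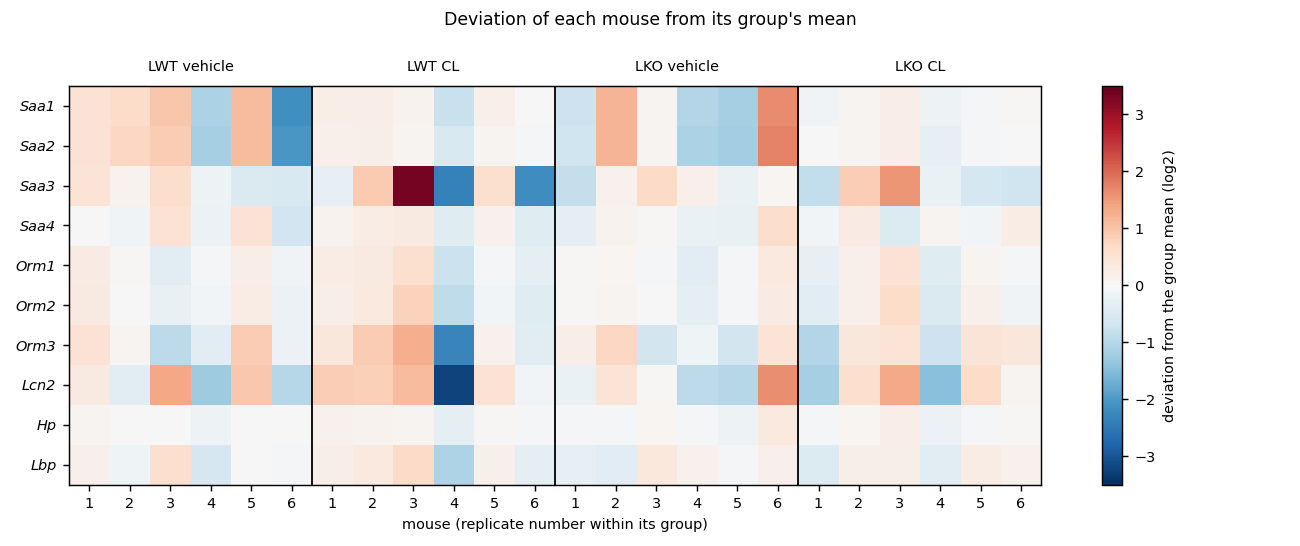
Deviation of each of the 24 mice (columns, by group and replicate number) from its group mean in the 10 genes (rows), on a log2 colour scale. LWT mouse 4 given CL316243 is below its group mean throughout, and the Saa1 and Saa2 rows fade in the CL316243 groups, where their SDs are 0.16 to 0.39.

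Among genes with a symbol, those whose deviations were most like the mean standardized deviation of the 10 over the 24 arrays were Slc41a2 (r = 0.91), Lrg1 (0.90), Sgol2a (0.88), Apol10b (0.88), Fga (0.88), Fgl1 (0.87), Cep55 (0.87) and Prg4 (0.86). A probe, clone or gene model identifier ranked above Fga and was passed over (1 in all). With LWT mouse 4 left out, these r values were 0.78 to 0.88, and Prg4 ranked 15. For comparison, each of the 10 correlated with the mean that includes it at 0.70 (Saa2 and Saa4) to 0.94 (Lcn2).

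Among 33 tested other positive acute phase proteins, 21 rose and 3 fell in LWT and 24 rose and 1 fell in LKO. Over all genes tested, 19.1% were called higher and 19.1% lower in LWT, and 20.7% and 19.4% in LKO. The metallothionein Mt2 rose most, with 4.66 log2 (SE 0.72, adjusted p = 2.54e-05) in LWT and 5.16 (SE 0.72, adjusted p = 9.59e-06) in LKO, and Mt1 rose by 3.47 and 3.82 (adjusted p = 9.46e-05 and 3.57e-05). The interleukin-1 receptor antagonist Il1rn rose by 4.31 log2 in LWT (2.79 with normexp background correction) and 2.03 in LKO, the ferrireductase Steap4 by 2.70 and 3.02. C1s1, Masp1 and Mbl2 of the complement system were the 3 that fell in LWT, by 0.25, 0.33 and 0.50 log2, although the mean of the Masp1 probes gave 0.0042 log2. Hepcidin 2 (Hamp2) fell in LKO by 1.48 log2 (adjusted p = 0.0256, and 0.006 to 0.0586 with 1 array left out). Crp and Cp were called in the interaction, Crp with adjusted p of 0.0244 to 0.36 over the alternatives. Crp changed by 0.16 log2 in LWT (adjusted p = 0.58) and rose by 1.23 in LKO (adjusted p = 8.99e-05), and ceruloplasmin, Cp, by 0.06 (adjusted p = 0.472) and 0.58 (adjusted p = 3.31e-07).

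Of 20 negative acute phase proteins, 3 rose and 2 fell in LWT and 4 rose and 2 fell in LKO, where 38.2% and 40.2% of all genes were called. The number called ranged from 5 to 9 in LWT and 4 to 11 in LKO over the alternatives and with 1 array left out. Albumin (Alb) changed by 0.15 log2 in LWT (adjusted p = 0.0729) and 0.09 in LKO (adjusted p = 0.307), neither called. The LWT change passed the threshold under 2 of 12 alternatives and with 1 array left out in 3 of 24 cases (adjusted p down to 0.037). After quantile normalization the changes were -0.08 and -0.14 log2, the latter called (adjusted p = 0.00677). Igfals, the acid labile subunit that carries insulin-like growth factors, fell by 1.68 log2 in LWT and 1.65 in LKO. Serpina6, corticosteroid-binding globulin, fell by 0.67 log2 in LWT, and Apoa1 fell by 0.26 log2 in LKO (adjusted p = 0.0311, and 0.00463 to 0.0709 over the alternatives). The apolipoprotein gene Apoa4 rose by 3.39 and 1.87 log2 and thyroxine-binding globulin, Serpina7, by 1.97 and 5.12 log2 in LWT and LKO, against the direction in the list's name.

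Of 44 tested cytokine signalling genes, 18 rose and 8 fell in LWT and 25 rose and 3 fell in LKO. The shares over all genes were 19.1% higher and 19.1% lower in LWT, and 20.7% and 19.4% in LKO. Il6 and Il1a did not pass the dim filter. Socs3, the feedback inhibitor of gp130 signalling, rose by 2.99 log2 (SE 0.66, adjusted p = 0.00106) in LWT and 3.01 (SE 0.66, adjusted p = 0.00101) in LKO. Stat3 rose by 1.01 (SE 0.21, adjusted p = 0.000581) and 1.73 log2 (SE 0.21, adjusted p = 1.9e-06). The interleukin-1 receptor Il1r1 rose by 2.68 and 3.08 log2 (adjusted p = 7.13e-05 and 1.71e-05), and the decoy receptor Il1r2, well above background on 2 and 1 of 6 vehicle arrays in LWT and LKO, rose by 3.35 and 3.44 (1.16 and 1.48 with normexp background correction). The receptor chain Il6ra changed by 0.00 and 0.31 log2, neither called, and Nfkbia, the NF-κB inhibitor, rose by 0.33 log2 in LWT (adjusted p = 0.0477, and 0.0238 to 0.0954 over the alternatives) and changed by 0.08 in LKO (adjusted p = 0.643). Il11ra1 fell by 0.82 log2 in both genotypes.

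Of 30 transcription factors, 15 rose and 5 fell in LWT and 14 rose and 7 fell in LKO. The shares over all genes were 19.1% higher and 19.1% lower in LWT, and 20.7% and 19.4% in LKO. Cebpb rose by 0.86 log2 (SE 0.27, adjusted p = 0.0163) in LWT and 0.9997 (SE 0.27, adjusted p = 0.00561) in LKO, Cebpd by 1.38 (SE 0.41, adjusted p = 0.011) and 1.46 (SE 0.41, adjusted p = 0.00735), whereas Cebpa fell by 0.79 and 0.57 log2 (adjusted p = 0.0014 and 0.0141). Jun rose by 2.41 and 2.49 log2, Egr1 by 2.30 and 3.90, and Fos by 1.48 and 3.10. Tsc22d3 fell by 1.32 log2 in LWT and 1.20 in LKO (adjusted p = 0.000292 and 0.000731). Cebpe fell by 1.79 log2 in LWT and changed by -0.06 in LKO, and its interaction of 1.73 log2 was called (adjusted p = 4.55e-05).

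Of 22 tested receptors and binding partners of the acute phase proteins, 5 rose and 1 fell in LWT and 5 rose and 3 fell in LKO, against the same 38.2% and 40.2% of all genes. The number called ranged from 6 to 9 in LWT and 5 to 10 in LKO over the alternatives and with 1 array left out. Cd14, the acceptor of lipopolysaccharide from Lbp, rose by 2.19 log2 (adjusted p = 0.0135) in LWT and 2.51 (adjusted p = 0.00519) in LKO. The haptoglobin-haemoglobin receptor Cd163 rose by 0.67 log2 in LWT (adjusted p = 0.00854) and changed by 0.35 in LKO (adjusted p = 0.159). Haem oxygenase Hmox1 changed by 0.84 log2 in LWT (adjusted p = 0.0892) and rose by 2.46 in LKO (adjusted p = 3.1e-05), with no interaction called (1.62 log2, adjusted p = 0.0865). Tlr2 changed by -0.30 log2 in LWT (adjusted p = 0.202) and rose by 0.89 in LKO (adjusted p = 0.00042). Lrp2, an endocytic receptor that takes up lipocalin 2, fell by 0.51 log2 in LWT (adjusted p = 0.00246) and changed by -0.03 in LKO.

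**Figure D5:**
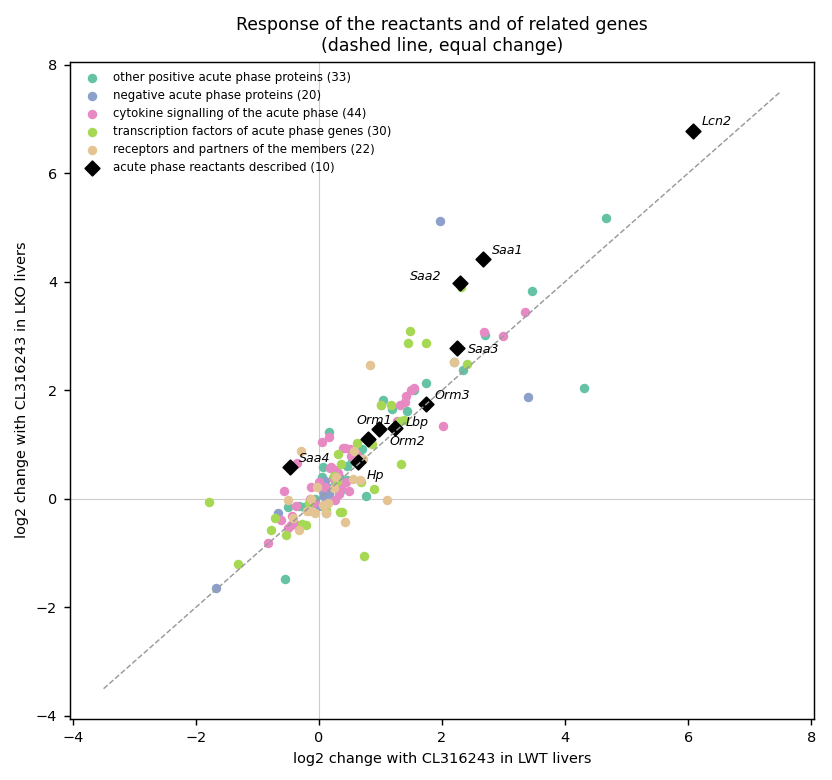
Log2 change with CL316243 in LWT (horizontal) and LKO (vertical) livers for the 10 acute phase reactants (diamonds) and the tested genes of 5 related lists (circles, numbers in the legend). Most points lie near the line of equal change, and of the 10 only Saa4 had a called difference between the genotypes.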

How the data were processed

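Liver RNA of 24 mice (200 ng each) was labelled with Cy3 and hybridised to 1 single-colour Agilent array per mouse. Per the file headers, the authors' scanner tables, written by version 10.10.1.1 of Agilent Feature Extraction, hold a background-subtracted intensity and flags for every spot. The deposited series table holds log2 values, quantile normalized by the authors: values rebuilt here from the median spot signals differ from it by a median of 0.000254, and 99.3% lie within 0.01. The submitters' processing notes also name limma.

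Here the processed intensity was converted to log2 after outlier-flagged spots were removed, replicate spots were averaged and the array's own 75th percentile (an intensity of 271 to 390) was taken off. A probe was kept when 4 or more of the 6 arrays of some group flagged it well above background (32036 of 56605 probes), and the brightest kept probe stood for its gene. limma 3.58.1 in R 4.3.3 fitted 1 mean per group to all 24 arrays, with empirical Bayes moderation, for 5 comparisons, with p-values adjusted by Benjamini-Hochberg over 21330 genes or, for second probes, over kept probes. The fit was tested on simulated data. Array number and signal limit the precision: the median standard error of a log2 change was 0.13, and 0.19 for the interaction. Groups came from the genotype and treatment labels. Fewer than all same-numbered arrays deviated together, so replicate numbers were not used as a block in the main fit. Alternatives covered background correction, normalization, the dim filter, probe choice, the series table, slide and row, the groups fitted and each array left out. Leaving out LWT mouse 4 given CL316243 in the r values and in the count of groups that do not overlap was chosen after seeing the data. So was leaving it out together with LKO vehicle mouse 6. The members and lists were chosen with earlier results of these data known. Named are the 10 genes, the 3 largest rises and falls called per related list and CL316243 comparison, genes with a called interaction, Stat3, Socs3, Cebpb, Cebpd, Nfkbia, Il6ra, Il1r1 and Alb, and the 8 genes most like the members, passing over identifiers of probes, clones or gene models, of which the text gives a selection. Promoter sequences are from RefSeq (GRCm38.p6) and probe positions from the array's annotation (mm9).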

Additional observations from a re-analysis of the deposited data

Results flagged for a closer look

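In 6 of the 48 groups of 6 arrays examined (12 probes in 4 groups), 1 array lay far from the others by Dixon's 95% criterion on the gap to the nearest value. Chance flags about 1 in 20 groups. Of the 6, 4 were LWT mouse 4 given CL316243, which was the lowest for Saa1 (9.39, the next at 10.16), Saa2 (10.19, the next at 10.67) and both Lcn2 probes (5.18, the next at 8.32, and 2.70, the next at 6.19). LWT mouse 3 given CL316243 was the lowest for the second Orm3 probe (-4.87, the next at -3.70), and LWT vehicle mouse 4 for Hp (9.26, the next at 9.43).

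The response to CL316243 differed between the genotypes, by the interaction in limma, for Saa4 (1.05 log2, LKO minus LWT, adjusted p = 0.03) and for 10 genes of the related lists. These lists held 33, 20, 44, 30 and 22 tested genes, some of them shared, and 5.4% of all genes tested were called. The difference was positive for Serpina7 (3.15 log2, adjusted p = 0.00476), Cebpe (1.73, adjusted p = 4.55e-05), Tlr2 (1.18, adjusted p = 0.00561), Crp (1.07, adjusted p = 0.0368), Stat5b (1.01, adjusted p = 3.17e-05), Nfkb2 (0.99, adjusted p = 0.00315), Relb (0.98, adjusted p = 0.0406) and Cp (0.52, adjusted p = 0.000382). The difference was negative for Apoa4 (-1.52, adjusted p = 0.0171) and Creb3l3 (-0.72, adjusted p = 0.0224). The calls of Crp, Relb, Saa4 and Creb3l3 did not hold under all alternatives (adjusted p up to 0.36, 0.133, 0.0671 and 0.0592), and with 1 array left out those of Crp, Relb and Saa4 were lost in 15, 16 and 8 of 24 cases.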

How the results depend on the processing

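Over the alternatives, the log2 changes of the 10 genes kept their side of the threshold in 586 of 590 values, and with 1 array left out in 1182 of 1200. The exceptions concerned Saa1, Saa2 and Saa4. The sign changed in 11 of 590 and 31 of 1200 values, and 0 of these were changes called in the main setting. The count of the 10 genes called was 9 to 10 in LWT and in LKO under CL316243 against vehicle. For the interaction it was 1, and 0 with no filter on dim probes, 0 with the replicate number as a block (Saa4 1.05 log2, adjusted p = 0.0505), and 0 to 2 with 1 array left out; the block changed no other call of the 10. Between LKO and LWT under vehicle the count was 0, and 0 to 2 with 1 array left out. Whether the replicate numbers pair the samples was not settled. Deviations of 36 same-numbered pairs of arrays correlated at -0.18 to 0.42 (median 0.052), 9 of them above 0.1. The median of 180 other pairs was -0.0085, and 10 of 24 arrays correlated best with their own number. Changes of 3 other genes reversed: Alb in LKO was -0.14 log2 (adjusted p = 0.00677) after quantile normalization, and with the mean of all kept probes Masp1 in LWT was 0.0042 log2 and Ager in LKO 0.069 log2. The cause was not tested. Signal over background limits values such as those of the second Orm3 probe and Il1r2, which were not well above background on every array.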
